A study of Mus musculus with 12 samples.

Results

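The 48 genes described here drive or mark the cell division cycle: 18 act in DNA replication, 8 at the passage from G1 to S phase and its checkpoint, and 22 in mitosis. They were chosen by name, as the probes whose gene name was on the list, and all 48 were found among the 34751 genes named on the array, with 64 of its 55681 probes. They were measured in 12 samples in 4 groups of 3. WT renal and op/op renal are cells sorted from the kidney with CD11b and CD11c magnetic beads (autoMACS), from wild-type and homozygous op/op mice of strain B6C3Fe a/a-Csf1op/J. The op mutation disables Csf1, the gene for the growth factor M-CSF. Both kidney groups had received 80 mg/kg glyoxylate for 6 days, a treatment that makes calcium oxalate crystals in the kidney, so no untreated kidney was compared. M1 BMDM and M2 BMDM are bone marrow derived macrophages of the same strain label, without a stated genotype. Ex vivo stimulation was by LPS and GM-CSF for M1 and by IL-4 together with M-CSF for M2. The age and sex of the mice were not given.

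Before a cell copies its DNA, cyclin D and cyclin E kinases release the E2F transcription factors, which switch on the genes of the replication machinery. Licensing factors load the MCM helicase on origins, and clamp, polymerase and nucleotide enzymes then build the new strands. Later, CDK1 with cyclins A and B, the Aurora and Polo kinases and the spindle checkpoint carry the cell through mitosis, and many of these genes are repressed in resting cells through a promoter element called CHR. Macrophages grown from bone marrow divide in response to M-CSF, and bacterial lipopolysaccharide is known to halt their cycle.

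Promoter sequences show how the replication and mitotic genes differ, and they were not used to choose them. Windows of 300 bases around the start (250 before and 50 after, from RefSeq, build GRCm38.p6) were given for 38 of the 48 genes. A gene with more than 1 window counted as holding a match if any of its windows did. The CHR letters TTTGAA were searched on both strands. They lay in a window of 11 of 17 mitotic genes (64.7%), 1 of 15 replication genes (6.67%) and 20.2% of all 27025 genes. The E2F sequence was TTCGCGC or TTGGCGC on either strand. It lay in a window of 7 of 15 replication genes (46.7%), 3 of 17 mitotic genes (17.6%) and 4.47% of all genes. The CCAAT box was searched on both strands too. It lay in a window of 14 of 17 mitotic genes, 11 of 15 replication genes and 41.1% of all genes. The 2 spellings of the E2F sequence can overlap each other, and a match describes letters, not binding.

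The 3 mitotic genes shown first hold CHR (capitals) upstream of the start, and the 3 replication genes hold the E2F sequence (capitals). They were those with the widest gap between M1 and M2 cells among genes with such a match before the start. Bub1b, Mcm7, Mcm3 and Cdt1 ranked above some of them but held their match only after the start.
Kif11 (chr19:37376302-37376381, plus strand): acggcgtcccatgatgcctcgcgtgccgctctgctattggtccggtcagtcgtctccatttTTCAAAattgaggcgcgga
Ube2c (chr2:164769849-164769928, plus strand): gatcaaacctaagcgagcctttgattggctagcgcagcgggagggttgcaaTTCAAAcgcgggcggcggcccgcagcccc
Cdc20 (chr4:118437344-118437423, minus strand): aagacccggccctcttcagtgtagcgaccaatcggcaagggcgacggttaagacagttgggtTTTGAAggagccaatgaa
Pola1 (chrX:93632253-93632332, minus strand): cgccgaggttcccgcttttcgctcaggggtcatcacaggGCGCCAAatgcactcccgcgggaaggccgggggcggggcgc
Mcm5 (chr8:75109321-75109400, plus strand): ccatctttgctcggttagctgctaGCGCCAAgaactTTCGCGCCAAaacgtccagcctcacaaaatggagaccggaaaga
Mcm6 (chr1:128359708-128359787, minus strand): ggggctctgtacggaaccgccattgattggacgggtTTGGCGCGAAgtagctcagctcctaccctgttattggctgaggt
The stretch of Mcm5 holds 3 matches, of which 2 overlap, and that of Mcm6 holds 2 overlapping matches. The CHR match of Kif11 began 19 bases before the start, that of Ube2c 29 and that of Cdc20 18.

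Levels are given as log2 of the signal relative to the 75th percentile of each array, so 0 is that percentile and a step of 1 is 2-fold. Where several probes carried a gene, the brightest stood for it. Of the 48 genes, 45 stood well above background on all arrays of 1 group or more (all 18 replication, 6 G1/S and 21 mitotic genes), and 31 were on all 12 arrays. Ccne2, which encodes the second cyclin E, Brca1, a DNA repair factor, and Aurkb, the kinase of the chromosomal passenger complex, were not well above background on any array and were not tested. Probes well above background made up 76.1% to 79.3% on WT, 63.1% to 68.7% on op/op, 72.6% to 75.1% on M1 and 64.3% to 65% on M2 arrays. WT replicate 1 was alone on its slide, the other 5 kidney arrays shared a slide and the 6 bone marrow arrays shared another, so slide, tissue and culture cannot be told apart between kidney and bone marrow. Whether the replicates of a group are separate animals or cultures is not stated, so the p-values reflect a spread among samples that could be technical. In bulk RNA, fewer cells of a type and less RNA per cell cannot be told apart.

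The macrophage label was checked with 10 marker genes, all of which were well above background on every kidney array. Their mean level was 2.11 to 3.3 on WT, 1.15 to 1.21 on op/op, 2.82 to 2.97 on M1 and 2.25 to 2.34 on M2 arrays. The kidney samples also carried 10 proximal tubule markers, at a mean of 2.49 to 3.48 in WT and 0.51 to 1.62 in op/op cells against -2.66 to -2.21 in bone marrow cells.

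**Figure D1:**
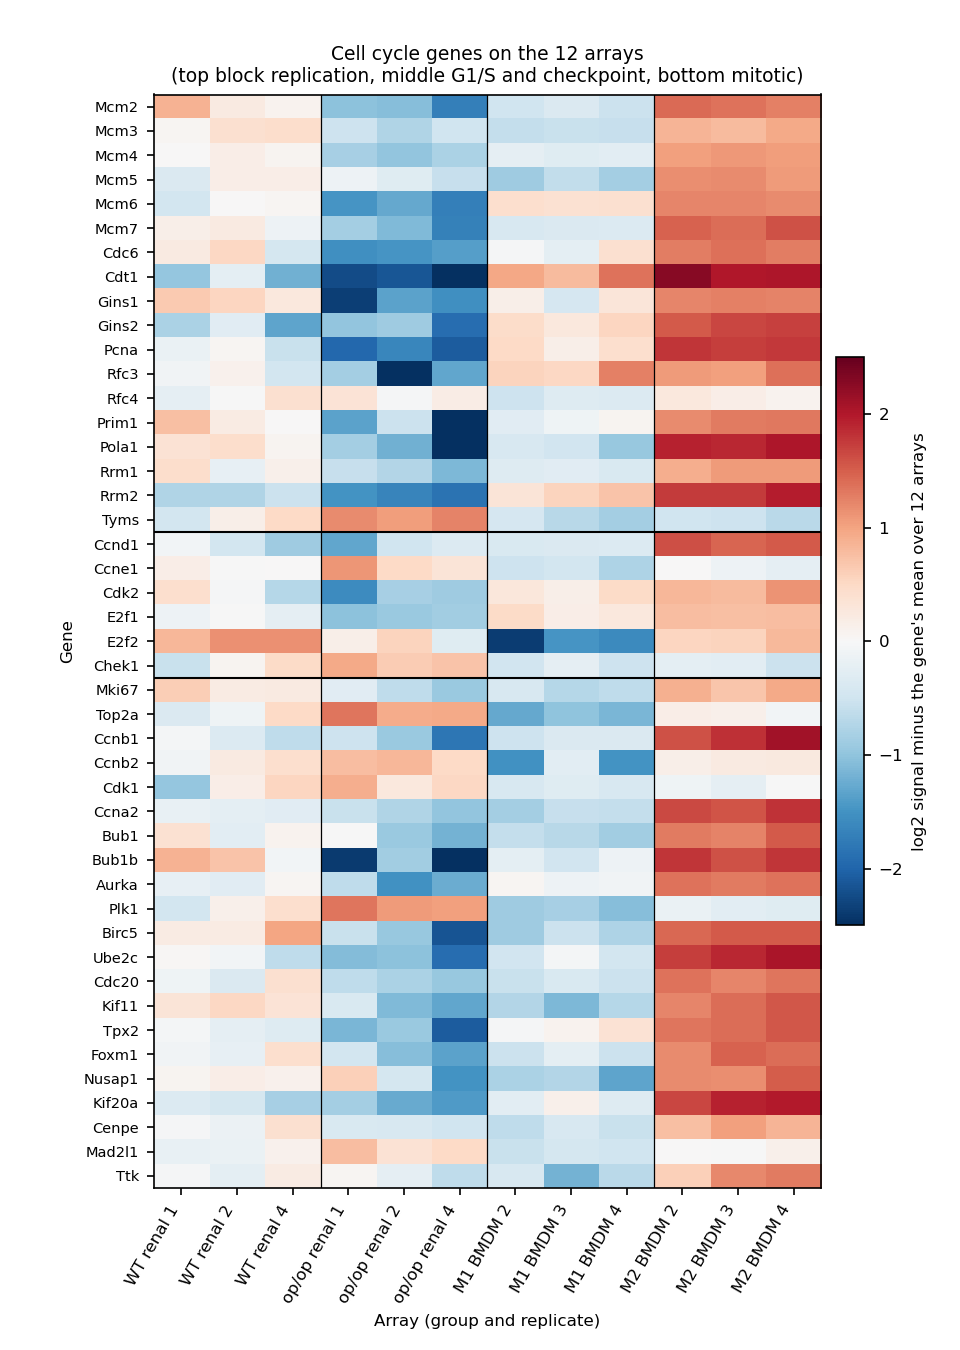
Heat map of the 45 cell cycle genes above background (rows) on the 12 arrays (columns), coloured by log2 signal minus the gene's mean over the 12 arrays and cut at 2.5 on either side. The M2 columns are red in nearly every row, and the op/op columns hold both low and high values.

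M2 macrophages carried the cell cycle program at its highest level. In 36 of 45 genes the M2 mean was the highest of the 4 groups (22.6% of all genes), and in 34 of 45 no M2 array overlapped any other array, a pattern found in 13.6% of all genes. The most frequent order of group means was M2, WT, M1 and then op/op, held by 18 of the 45 genes and by 2.77% of all 28248 genes. Another 12 genes ran M2, M1, WT and op/op, an order that 14.5% of all genes shared. The 2 orders differ in whether WT kidney cells or M1 cells came second. The op/op mean was the lowest of the 4 groups in 30 of the 45 genes (33.9% of all genes) and the highest in 8 (46.1%). In 5 of these 8 the order was op/op, WT, M2 and M1, an order that 17% of all genes shared.

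The comparison of M1 with M2 cells asks how the 2 bone marrow reference states differ. Growth factor (GM-CSF or M-CSF) and stimulus (LPS or IL-4) differed together, so their parts cannot be told apart. M1 cells had lower cell cycle expression than M2 cells: 38 of 45 genes fell and 0 rose by limma, while 8.93% of all 26160 genes tested fell and 8.86% rose. At an unadjusted p under 0.05, 40 genes were lower and 0 higher, and the difference was below 0 in all 45. The median difference was -1.39 on the log2 scale, against 0 for all genes. In 42 of 45 genes every M1 array lay below every M2 array, as it did in 25.7% of all genes. Among the 31 genes above background on all 12 arrays, 25 fell (9.27% of all genes so measured).

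Of the mitotic genes 20 of 21 were lower in M1 than in M2, with a median of -1.79 (-1.40 over the 14 above background on all 12 arrays). Mki67, the proliferation marker Ki-67 that coats mitotic chromosomes, stood at 1.10, 0.80 and 0.87 on the M1 arrays, 2.40, 2.21 and 2.46 on the M2 arrays, 2.13, 1.72 and 1.73 on the WT arrays and 1.22, 0.88 and 0.57 on the op/op arrays. M2 was above all other groups, WT came next, and M1 and op/op overlapped. Its probe lies at chromosome 7, 142881591 to 142881650 (mm9), and the M1 level was 2.69-fold below M2 (difference -1.43 ± 0.20, SE, adjusted p = 0.000328). A second probe 3173 bases away gave -1.47.

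Among the mitotic genes, cyclins A2 and B1 had the widest differences. Ccna2, cyclin A2, stood at -1.31, -1.05 and -1.06 on the M1 arrays, 1.19, 1.10 and 1.34 on the M2 arrays, -0.65, -0.71 and -0.75 on the WT arrays and -1.02, -1.21 and -1.45 on the op/op arrays. Only the M2 arrays were above the 75th percentile, and M1 and op/op overlapped. The M1 level was 5.09-fold below M2 (-2.35 ± 0.16, adjusted p = 1.21e-06). Ccnb1, cyclin B1, stood at -2.26, -2.09 and -2.09 on the M1 arrays, -0.15, 0.10 and 0.37 on the M2 arrays, -1.78, -2.08 and -2.36 on the WT arrays and -2.26, -2.67 and -3.54 on the op/op arrays. M2 alone stood clear of the other 3 groups, which overlapped, and M1 was 4.77-fold below M2 (-2.25 ± 0.29, adjusted p = 0.0002). Its other 2 probes gave -2.61 and -1.61. Ccnb2, cyclin B2, fell by 1.30 on the log2 scale.

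Motors, spindle factors and the exit machinery followed. Kif11, the kinesin that pushes spindle poles apart, was 4.72-fold lower in M1 (-2.24 ± 0.23), Kif20a, a cytokinesis kinesin, 4.05-fold (-2.02 ± 0.21), and Nusap1, a spindle protein, 4.71-fold (-2.23 ± 0.40). Birc5, survivin of the chromosomal passenger complex, fell 4.68-fold (-2.23 ± 0.35). Ube2c, the ubiquitin-conjugating enzyme of the anaphase promoting complex, fell 4.63-fold, and Cdc20, its activator, 3.48-fold. All 5 spindle checkpoint and kinetochore genes fell, from Bub1 (-2.08 ± 0.28) and Bub1b (-2.0 ± 0.39) to Mad2l1 (-0.55 ± 0.16). Foxm1, the transcription factor of many of these genes, was 3.46-fold lower. Aurka, Tpx2, Ttk and Cenpe fell by 1.29 to 1.79.

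Replication genes fell in 15 of 18 cases, with a median of -1.29 (-1.31 over the 11 above background on all 12 arrays). All 6 MCM helicase subunits fell, from Mcm5 (3.79-fold) to Mcm6 (1.75-fold). Mcm5 stood at -0.36, -0.08 and -0.31 on the M1 arrays, 1.70, 1.71 and 1.60 on the M2 arrays, 0.17, 0.69 and 0.69 on the WT arrays and 0.40, 0.22 and -0.05 on the op/op arrays. M2 was highest without overlap, and WT and op/op overlapped. Pola1, the catalytic subunit of polymerase alpha that starts each new strand, stood at -2.85, -2.92 and -3.40 on the M1 arrays, -0.52, -0.57 and -0.42 on the M2 arrays, -2.09, -2.0 and -2.37 on the WT arrays and -3.30, -3.64 and -5.28 on the op/op arrays. This was the widest gap of the 45 genes, 5.87-fold (-2.55 ± 0.40, adjusted p = 0.000864). Prim1, the primase at its side, stood at -2.30, -2.13 and -1.96 in M1, -0.83, -0.72 and -0.70 in M2, -1.27, -1.81 and -2.01 in WT and -3.36, -2.56 and -4.58 in op/op cells.

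The sliding clamp Pcna stood at 3.16, 2.81 and 3.09 on the M1 arrays, 4.45, 4.40 and 4.43 on the M2 arrays, 2.49, 2.71 and 2.11 on the WT arrays and 0.70, 1.03 and 0.59 on the op/op arrays. The 4 groups did not overlap, in the order M2, M1, WT and op/op, and M1 was 2.65-fold below M2 (-1.41 ± 0.19, adjusted p = 0.000295). The licensing factor Cdt1 stood at 0.19, 0.02 and 0.58 in M1, 1.5, 1.23 and 1.25 in M2, -1.73, -1.02 and -1.97 in WT and -3.01, -2.91 and -3.39 in op/op cells. Rrm2, the small subunit of ribonucleotide reductase, stood at 0.44, 0.68 and 0.84 in M1, 1.86, 1.87 and 2.08 in M2, -0.63, -0.64 and -0.42 in WT and -1.38, -1.52 and -1.72 in op/op cells. Both genes were higher on every bone marrow array than on any kidney array. Gins1 and Gins2, which join the MCM ring in the active helicase, fell 2.35-fold and 2.32-fold in M1 cells.

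At the G1/S boundary 3 of 6 genes fell. Ccnd1, cyclin D1, the growth factor responsive cyclin, stood at 1.72, 1.73 and 1.76 on the M1 arrays, 3.72, 3.56 and 3.64 on the M2 arrays, 2.03, 1.65 and 1.22 on the WT arrays and 0.81, 1.60 and 1.76 on the op/op arrays. M2 was 3.75-fold above M1 (-1.91 ± 0.26, adjusted p = 0.000279), and the other 3 groups overlapped. E2f2 stood at -3.37, -2.47 and -2.60 in M1, -0.47, -0.44 and -0.19 in M2, -0.17, 0.14 and 0.14 in WT and -0.86, -0.45 and -1.30 in op/op cells. It was the only tested gene of the list with its highest mean in WT cells, where all 3 arrays lay above those of the other groups (3.31% of all genes, with 11.8% highest in WT with or without overlap), and it was 5.44-fold lower in M1 than in M2 (-2.44 ± 0.27, adjusted p = 5.27e-05). E2f1 stood at 0.78, 0.47 and 0.57 in M1, 1.08, 1.06 and 1.08 in M2, 0.18, 0.30 and 0.09 in WT and -0.72, -0.62 and -0.57 in op/op cells, with a smaller M1 to M2 difference (-0.46 ± 0.14, adjusted p = 0.0456).

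Some genes did not pass between M1 and M2. Tyms, thymidylate synthase, stood at -0.33, -0.59 and -0.75 in M1 and -0.40, -0.43 and -0.57 in M2 cells, Chek1, a DNA damage checkpoint kinase, at 0.87, 1.12 and 0.84 against 1.10, 1.09 and 0.81, and the clamp loader subunit Rfc3 at -1.70, -1.74 and -1.01 against -1.20, -1.24 and -0.88. The arrays of both groups overlapped for these 3 genes. Cdk1, Cdk2, Ccne1 and Rfc4 did not pass either (differences -0.25, -0.61, -0.46 and -0.56), although each M1 array lay below each M2 array. Other probes of these genes read lower: the other Rfc4 probe gave -1.24 and those of Cdk1 -2.29 and -1.63, all called, while that of Ccne1 gave -0.76, not called. Rfc4 was called under 8 of the alternative settings.

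The calls of Prim1, E2f1, Plk1 and Mad2l1 were lost on leaving out M1 replicate 2, 3 or 4 or M2 replicate 2, 3 or 4 (Prim1 -1.47 to -1.30, E2f1 -0.55 to -0.39, Plk1 -0.73 to -0.61, Mad2l1 -0.58 to -0.50), and those of Cdt1 and Gins2 without M1 replicate 3 (-0.94 and -1.13) and, for Cdt1, without M2 replicate 2 (-0.98). Neutrophil marker genes were lower in M1 too (4 of 8 called, mean level 0.55 to 0.71 against 1.49 to 1.93 in M2), and their part in the result was not tested.

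**Figure D2:**
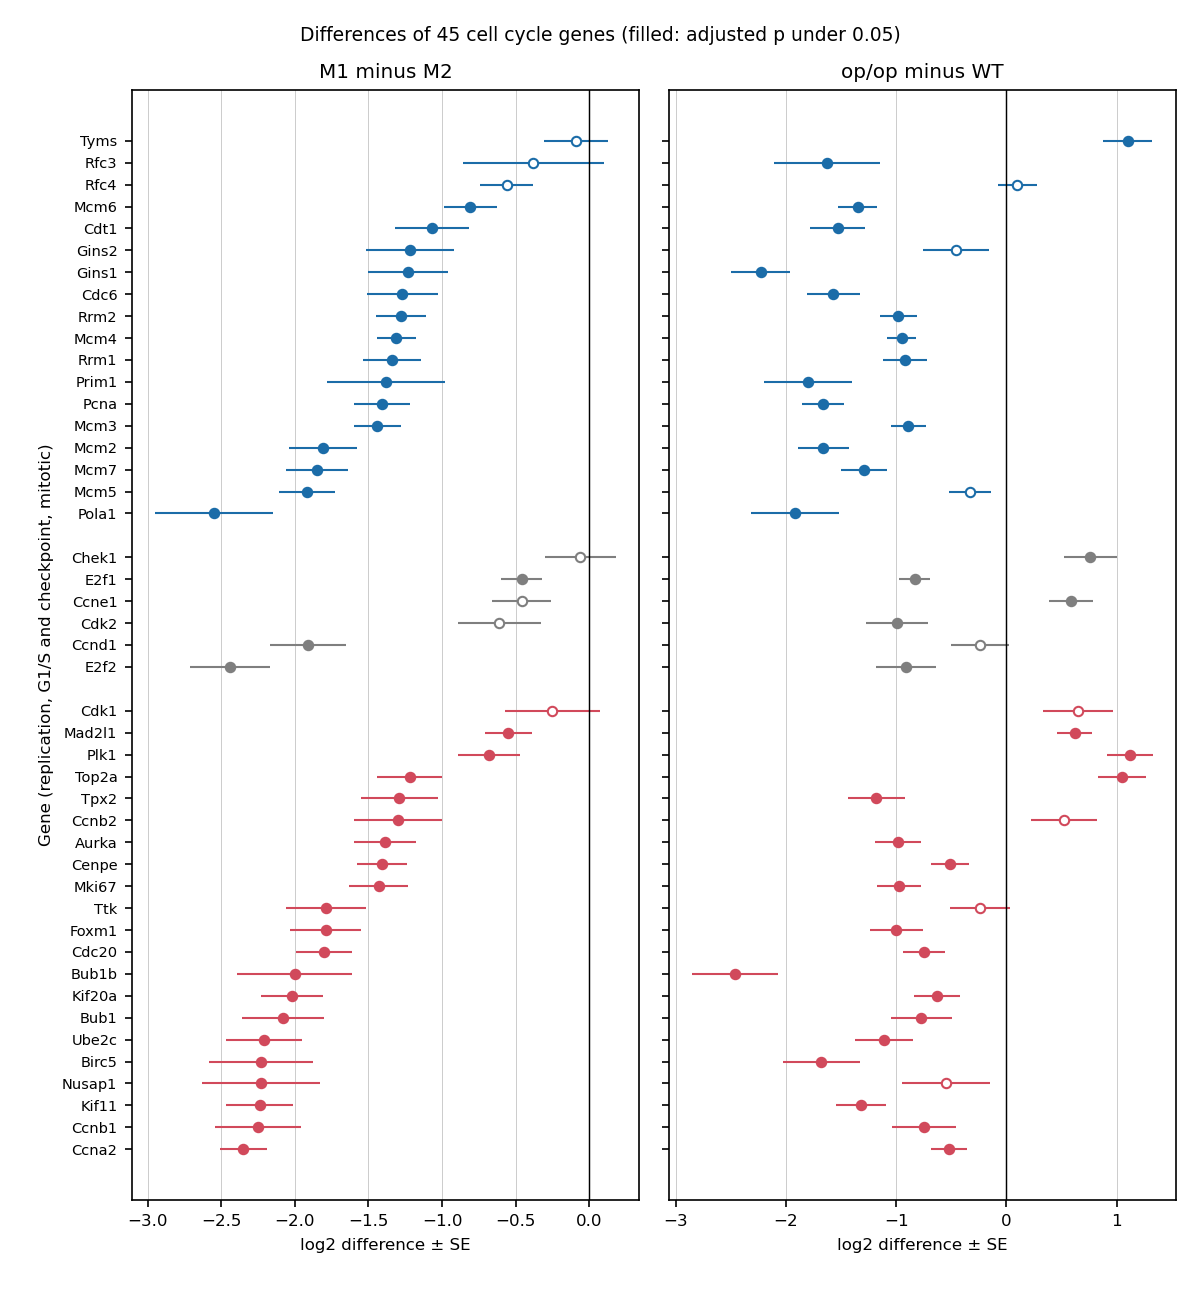
Log2 difference with SE of each of the 45 genes, M1 minus M2 on the left and op/op minus WT on the right, ordered within the replication (blue), G1/S and checkpoint (grey) and mitotic (red) genes by the M1 to M2 difference. Filled points passed at an adjusted p under 0.05. All points on the left lie below 0, while on the right 9 lie above it and 6 of these passed.

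The comparison of op/op with WT kidney cells asks how the absence of M-CSF is reflected in the sorted cells of glyoxylate-treated mice. Most cell cycle genes were lower in op/op cells: 31 of 45 fell and 6 rose, while 28.5% of all 27043 genes fell and 31% rose. The median difference was -0.91, against 0.16 for all genes. Every op/op array lay below every WT array in 29 of 45 genes, against 25.6% of all genes. In the fit to the 6 kidney arrays alone, which does not borrow the smaller spread of the bone marrow arrays, 24 fell and 3 rose (17.3% and 17.4% of all genes). The calls lost there were those of Ccne1, Chek1 and Mad2l1 among the risers and of Cdk2, Ccnb1, Ccna2, Bub1, Cdc20, Kif20a and Cenpe. Among the 31 genes above background on all 12 arrays, 19 fell and 6 rose (29.6% and 34.6%).

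Of the replication genes 14 of 18 fell, with a median of -1.32. Among genes above background on all 12 arrays, 7 of 11 replication genes (63.6%, median -0.92) and 9 of 14 mitotic genes (64.3%, median -0.58) fell. Gins1 stood at -1.40, -1.52 and -1.78 on the WT arrays, -4.41, -3.38 and -3.59 on the op/op arrays, -1.90, -2.46 and -1.74 on the M1 arrays and -0.82, -0.78 and -0.81 on the M2 arrays. Op/op was lowest without overlap (-2.23 ± 0.27 against WT, adjusted p = 0.000427), but only 1 of 3 op/op arrays measured Gins1 well above background, as was the case for Cdt1, Prim1, Rfc3 and Bub1, so the sizes of these differences rest largely on dim signals. Pcna was 3.17-fold lower (-1.66 ± 0.19, adjusted p = 0.000403), and the differences were -1.53 ± 0.25 for Cdt1 and -1.80 ± 0.40 for Prim1. The helicase subunits Mcm3, Mcm4, Mcm6 and Mcm7 fell by 0.89 to 1.35 on the log2 scale, and the ribonucleotide reductase genes Rrm1 and Rrm2 by 0.92 and 0.98. Rfc3 stood at -2.36, -2.16 and -2.72 in WT and -3.12, -5.47 and -3.56 in op/op cells (-1.63 ± 0.48). Mcm5 (-0.33 ± 0.19), Gins2 (-0.46 ± 0.30) and Rfc4 (0.10 ± 0.18) did not pass. Gins2 stood at -0.85, -0.34 and -1.37 on the WT arrays, -1.05, -0.94 and -1.96 on the op/op arrays, 0.41, 0.20 and 0.49 on the M1 arrays and 1.48, 1.61 and 1.66 on the M2 arrays, so the kidney groups overlapped and both lay below the bone marrow groups.

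On the op/op arrays several genes nowhere stood well above background, and for these a fold limited by a floor is given. It was computed against the lowest signal called well above background on each array, and in a second version against the 10th percentile of such signals. For Ttk this was 0.848-fold (0.521-fold in the second version), so no fall was shown, and Ttk did not pass (-0.24 ± 0.27). Against the floor Mcm2 was 1.99-fold lower in op/op cells (1.22-fold in the second version). Cdc6, a licensing factor, was 2.07-fold lower (1.27-fold), Pola1 2.21-fold (1.36-fold) and Bub1b, a spindle checkpoint kinase, 1.94-fold (1.19-fold). These folds hold for the background subtraction used here and are not lower bounds under another one. Bub1b stood at -1.98, -2.13 and -2.91 on the WT arrays, -5.24, -3.71 and -5.47 on the op/op arrays, -3.09, -3.32 and -2.97 on the M1 arrays and -1.06, -1.25 and -1.07 on the M2 arrays. With normexp background correction 22 genes were lower (24.2% of all genes) and 7 higher (10035 of all 27037 genes). The calls of Mcm2, Cdc6, Rfc3, Kif11, Ccnb1, Ccna2, Bub1, Kif20a and Cenpe were lost, at differences of -0.35 (Kif11) to -0.07 (Bub1). Mcm2 read -0.26 and Cdc6 -0.28 there. Cdk1 was newly called higher (0.53).

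Mitotic genes fell in 14 of 21 cases and rose in 3, with a median of -0.75. Mki67 was 1.96-fold lower in op/op cells (-0.97 ± 0.20, adjusted p = 0.00275), with no overlap between the groups, and its second probe gave -1.30. Birc5 fell 3.20-fold (-1.68 ± 0.35), with -1.09 and -0.67 on its other 2 probes. Kif11 fell 2.5-fold, Tpx2, an activator of Aurora A, 2.27-fold, Ube2c 2.16-fold, Foxm1 2.01-fold and Aurka, the Aurora A kinase, 1.97-fold. Cdc20 (-0.75 ± 0.19), Kif20a (-0.63 ± 0.21), Ccna2 (-0.52 ± 0.16) and Cenpe (-0.51 ± 0.17) fell less. Ccnb1 (-0.75 ± 0.29, adjusted p = 0.0433) and Bub1 (-0.77 ± 0.28, adjusted p = 0.0324) were called lower although their op/op and WT arrays overlapped. The other 2 probes of Ccnb1 gave -0.49 and -0.19, neither called, and the mean of its probes lost the call (-0.48). Among G1/S genes E2f1 (-0.83 ± 0.14), E2f2 (-0.91 ± 0.27) and Cdk2 (-0.99 ± 0.28) fell, while Ccnd1 did not pass (-0.24 ± 0.26).

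The 6 genes that rose were Tyms, Plk1, Top2a, Chek1, Mad2l1 and Ccne1. Plk1, the Polo kinase of mitotic entry, stood at 0.63, 1.21 and 1.51 on the WT arrays, 2.44, 2.15 and 2.11 on the op/op arrays, 0.21, 0.27 and 0.03 on the M1 arrays and 0.93, 0.83 and 0.79 on the M2 arrays. Op/op was highest without overlap, 2.17-fold above WT (1.12 ± 0.21, adjusted p = 0.002). Top2a, the topoisomerase that disentangles chromosomes, stood at -0.55, -0.29 and 0.31 on the WT arrays, 1.14, 0.73 and 0.75 on the op/op arrays, -1.47, -1.20 and -1.33 on the M1 arrays and -0.03, -0.06 and -0.26 on the M2 arrays, and was 2.07-fold higher in op/op than WT (1.05 ± 0.22). Tyms stood at -0.36, 0.24 and 0.59 in WT and 1.27, 1.15 and 1.33 in op/op cells (1.10 ± 0.22). Chek1 stood at 0.79, 1.43 and 1.84 in WT and 2.30, 1.99 and 2.06 in op/op cells (0.76 ± 0.24). In these 4 genes WT replicate 1 was the lowest WT array and replicate 4 the highest.

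The probes of one gene did not always give the same answer, also among the genes that rose or did not pass. Cdk1, the kinase of mitotic entry, stood at -1.89, -0.75 and -0.38 on the WT arrays, -0.02, -0.65 and -0.41 on the op/op arrays, -1.32, -1.22 and -1.32 on the M1 arrays and -1.04, -1.14 and -0.94 on the M2 arrays on its brightest probe (chromosome 10, 68799513 to 68799572, mm9), with overlapping kidney groups and 0.65 ± 0.32 between them. A probe 1540 bases away gave -1.48 for op/op minus WT, called lower with no op/op array well above background, and -2.29 for M1 minus M2. The last of its probes gave -0.98, not tested between the kidney groups, and -1.63, called lower in M1. Mad2l1, a spindle checkpoint protein, rose by 0.62 on its brightest probe, while 2 probes within 481 bases gave -0.64 and 0.07, neither called. Rfc4 read 0.10 on one probe and -0.70, called lower, on the other. Ccne1, cyclin E1, stood at -0.18, -0.35 and -0.32 on the WT arrays, 0.76, 0.17 and -0.01 on the op/op arrays, -0.85, -0.80 and -1.10 on the M1 arrays and -0.33, -0.47 and -0.57 on the M2 arrays (0.59 ± 0.20 between op/op and WT), and its other probe gave 0.64, not called. Tyms, Plk1, Top2a and Chek1 had 1 probe each.

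**Figure D3:**
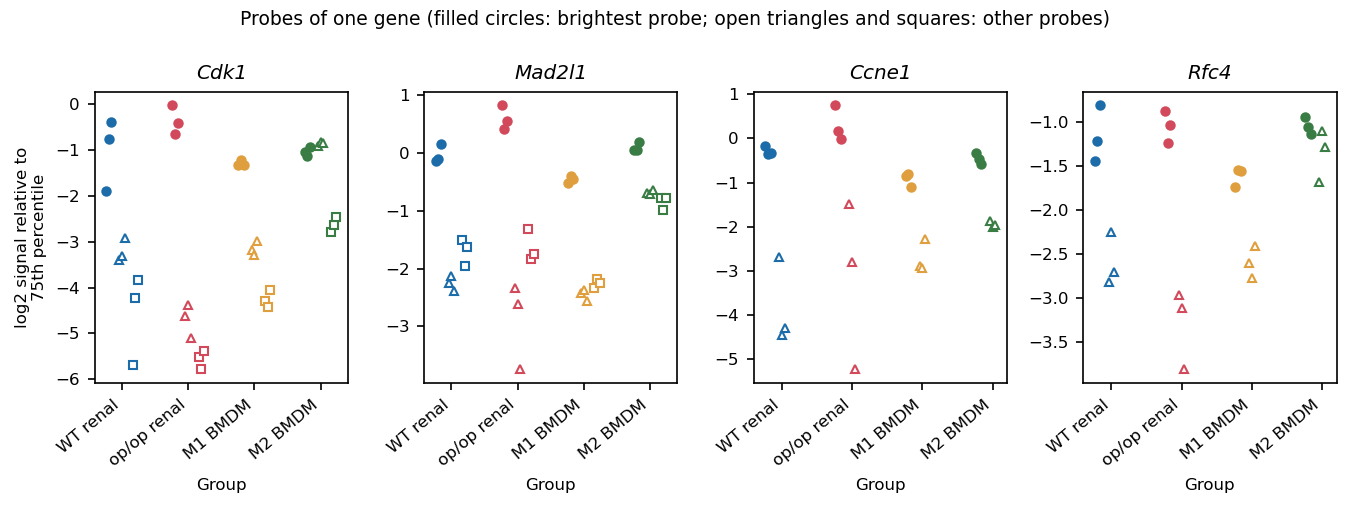
Log2 signal relative to the 75th percentile on each array for every probe of Cdk1, Mad2l1, Ccne1 and Rfc4, with the brightest probe filled and the others open. The brightest Cdk1 probe was level or higher in op/op than in WT cells (difference 0.65), while the open triangles lay lower in op/op (difference -1.48).

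Other probes and marker genes were read on the same arrays. Probes of olfactory receptor genes, odorant receptors of the nose, were chosen after their values had been seen. Of 216 such probes above background on all 12 arrays, 146 were higher in op/op and 0 lower, with a median difference of 0.87. Their median deviation was -0.16, 0.10 and 0.68 on WT replicates 1, 2 and 4 and 0.97 to 1.36 on op/op arrays. Between M1 and M2 the median was 0.02. Of T and NK cell markers 4 of 5 tested were higher in op/op, as were 31% of all genes. Over all 9 on the list the mean level was -1.32 to -1.07 in WT and -0.64 to 0.16 in op/op. Cd3g, Cd8a, Klrb1c and Ncr1 were not tested, and Cd3d was not called (0.28). The called Cd3e, Cd4, Lck and Prf1 also stood at 0.64, 3.19, 1.5 and 1.99 in M1 cells. Of B cell markers 4 of 5 were higher and 1 lower (mean level -1.93 to -1.49 in WT, -1.22 to -0.68 in op/op). Of neutrophil markers 4 of 7 tested were higher (-0.98 to -0.32 and 0 to 0.21 over all 8). Macrophage markers (8 of 10 lower) and proximal tubule markers (9 of 10 lower) fell beside the 31 genes that fell. Of 8 distal nephron and collecting duct markers 4 were higher and 1 lower. Of 6 endothelial markers 1 was higher and 0 lower, and of 3 tested erythroid markers 1 was lower. The part of any of these in the result was not tested.

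Some calls between the kidney groups were lost on leaving out a single array, in some cases without a smaller difference. Without op/op replicate 1 the calls of Ccne1 (0.36), Chek1 (0.67) and Cdk2 (-0.75) were lost, and without op/op replicate 4 those of E2f2 (-0.69), Ccnb1 (-0.39), Ccna2 (-0.41), Bub1 (-0.54), Kif20a (-0.51) and Cenpe (-0.47). Without WT replicate 1, alone on its slide, the calls of Chek1 (0.48), Ccnb1 (-0.60), Bub1 (-0.61) and Kif20a (-0.54) were lost and Mcm5 was called (-0.50). Leaving out WT replicate 2 lost Ccne1 (0.55), Ccnb1 (-0.75) and Kif20a (-0.59), WT replicate 4 lost Bub1 (-0.77) and Cenpe (-0.34), and op/op replicate 2 lost Ccnb1 (-0.83), Bub1 (-0.66) and Kif20a (-0.59). Cdk1 passed without WT replicate 4 (0.96) and Nusap1 without op/op replicate 1 (-1.08).

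**Figure D4:**
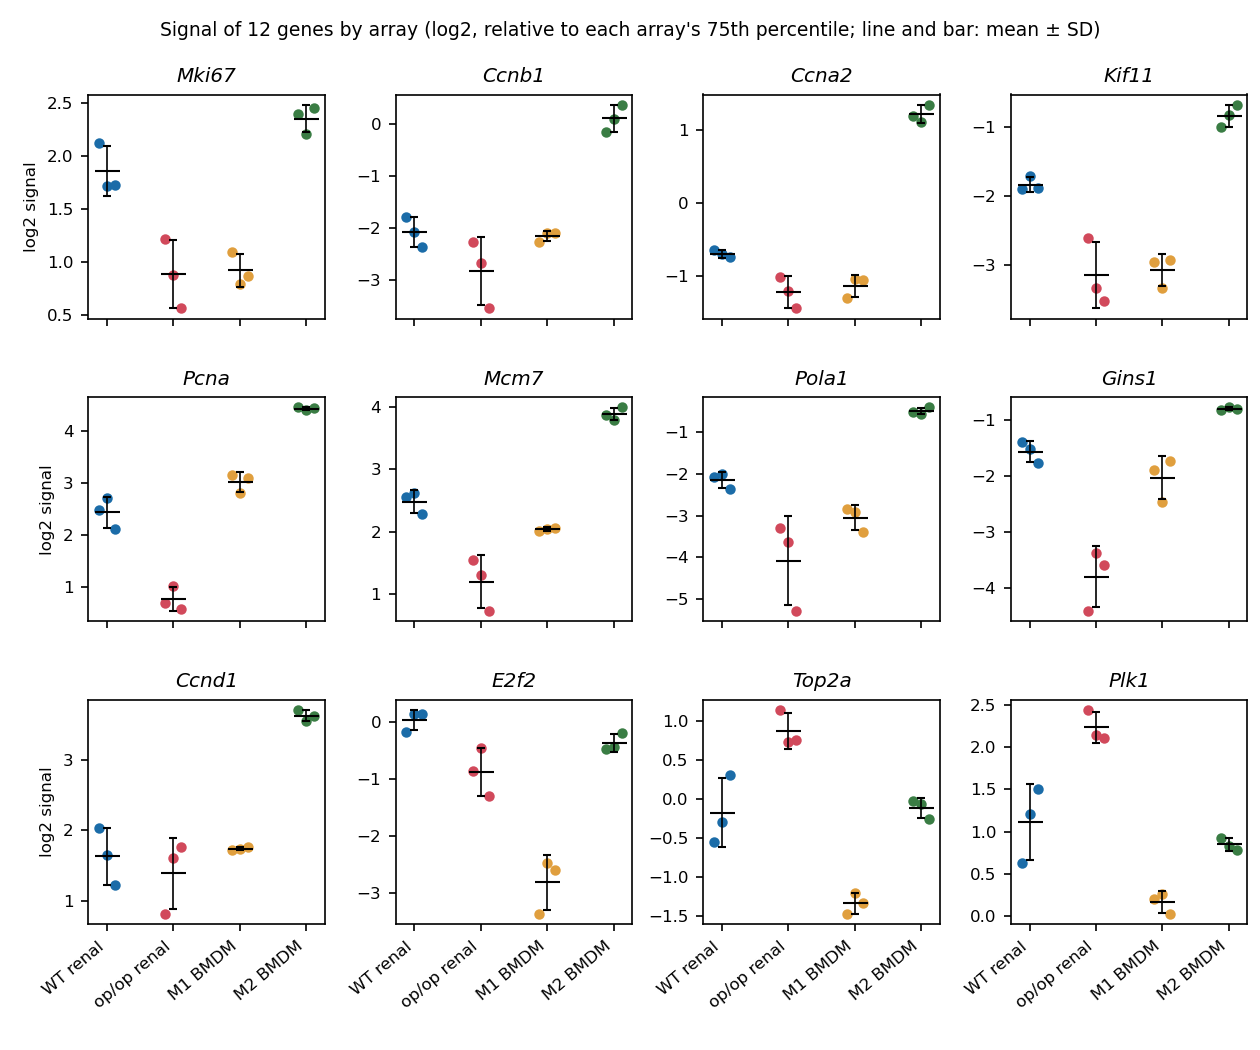
Signal of 12 of the genes in log2 units above or below the 75th percentile of the array, with 1 point per array and the mean and SD of each group in black. M2 is highest in the panels of Mki67, Ccnb1, Ccna2, Kif11, Pcna, Mcm7, Pola1, Gins1 and Ccnd1, WT in that of E2f2 and op/op in those of Top2a and Plk1.

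Replication and mitotic genes were then set against each other within each array, as the mean over a set of each gene's deviation from its own mean over the 12 arrays. The replication set stood at -0.13 to 0.09 on WT, -1.38 to -0.97 on op/op, -0.12 to 0.02 on M1 and 1.21 to 1.24 on M2 arrays. The mitotic set stood at -0.04 to 0.12, -0.91 to -0.19, -0.61 to -0.49 and 1 to 1.17. The M1 arrays thus overlapped the WT arrays in the replication set, while in the mitotic set they lay within the range of the op/op arrays. The replication minus mitotic gap was -0.04 ± 0.19 on WT arrays and -0.61 ± 0.16 on op/op arrays, and it was 0.51 ± 0.13 on M1 and 0.14 ± 0.07 on M2 arrays (SD, n = 3 each). No op/op array overlapped a WT array and no M1 array an M2 array in this gap. On the 11 replication and 14 mitotic genes above background on all 12 arrays the gap was -0.07 ± 0.14, -0.45 ± 0.12, 0.38 ± 0.13 and 0.15 ± 0.03. The shares of these genes called lower in op/op than in WT were alike (63.6% and 64.3%). Further genes of the pathway gave the opposite order there (median -0.62 for replication and -0.95 for mitotic genes). The sets use brightest probes, and those of Cdk1, Mad2l1 and Rfc4 gave a higher op/op minus WT difference than their other probes.

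**Figure D5:**
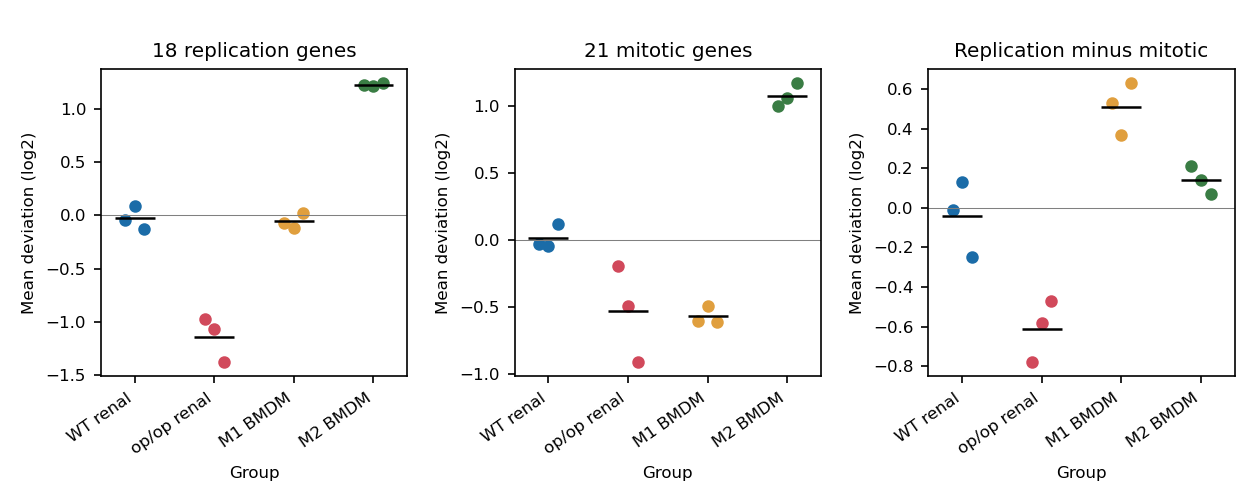
Mean deviation per array of the 18 replication genes, of the 21 mitotic genes and the difference between both, in log2 units, with 1 point per array and a line at each group's mean. In the replication set WT and M1 lie together near 0, while in the mitotic set M1 lies with op/op.

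Kidney cells as a whole were compared with bone marrow macrophages as the mean of WT and op/op minus the mean of M1 and M2, a comparison in which slide, tissue and culture cannot be told apart. Most cell cycle genes were lower in the kidney cells: 32 of 45 fell and 8 rose, against 34.7% and 47.4% of all genes, with a median of -0.88 against 0.32 for all genes. Among replication genes 16 of 18 fell (median -1.21), among mitotic genes 13 of 21 (median -0.64) and among G1/S genes 3 of 6. The licensing factor Cdt1 was 8.78-fold lower (-3.13 ± 0.18), Rrm2 5.10-fold (-2.35 ± 0.12), Pcna 4.34-fold (-2.12 ± 0.14) and Gins2 4.18-fold (-2.06 ± 0.21). Tyms (1.22 ± 0.16), E2f2 (1.18 ± 0.19), Plk1 (1.16 ± 0.15), Top2a (1.07 ± 0.16), Ccnb2 (0.89 ± 0.21), Chek1 (0.76 ± 0.17), Ccne1 (0.70 ± 0.14) and Mad2l1 (0.46 ± 0.11) were higher. The direction turned on other probes of 2 of them: those of Mad2l1 gave -1.01, called lower, and -0.11, and that of Ccne1 gave -1.17, not called. With slide as a random block 23 genes were lower and 5 higher (27% and 35.3% of all genes). The olfactory receptor probes were higher in kidney cells as well, by a median of 1.32. So were the markers of proximal tubule (10 of 10), distal nephron and collecting duct (8 of 8) and endothelium (6 of 6). Those of B cells (5 of 5) and of T and NK cells (4 of 5 tested) were higher too. Of macrophage markers 8 of 10 were lower and 2 higher, and of neutrophil markers 5 of 8 lower and 2 higher. The part of these in the result was not tested. Mki67 did not pass (-0.27 ± 0.14, adjusted p = 0.0951).

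Leaving out single arrays ended the calls of 3 genes in this comparison: Mcm3 (-0.29 ± 0.11), which was lost without op/op replicate 2, each M1 replicate, or M2 replicate 2 or 4 (-0.29 to -0.24), Mcm5 (-0.35 ± 0.13), lost without op/op replicate 4, M1 replicate 3, or M2 replicate 2 or 3 (-0.35 to -0.29), and Cenpe, lost without replicate 3 of M1 or of M2 (-0.31 each). Rfc4 (0.30), Cdk1 (0.70) and Mki67 (-0.33) passed without WT replicate 1, and Mki67 (-0.35) and Nusap1 (-0.59) without op/op replicate 1. Other probes of Cdk1 (-1.94 and -1.63) and Rfc4 (-0.97) were called lower in the kidney cells.

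Other genes of the pathway, from lists of replication, mitotic, G1 and inhibitor genes, were read alongside. Of all genes, 8.93% fell and 8.86% rose between M1 and M2. Of further genes, 17 of 27 replication and 18 of 27 mitotic genes fell and 0 of either rose (0 at an unadjusted p under 0.05). They included Dut, a dUTPase (-1.99 ± 0.19), Uhrf1, which carries DNA methylation through replication (-1.90 ± 0.20), Chaf1a, a histone chaperone at the fork (-1.64 ± 0.19), Cenpa, the centromere histone (-3.35 ± 0.25), Ect2, a cytokinesis factor (-2.16 ± 0.17), and Cdca8, borealin (-2.21 ± 0.21). Of 8 G1 regulators 2 fell and 1 rose: Cdk6 (-1.14 ± 0.16) and Cdk4 (-0.80 ± 0.20), the partners of cyclin D, fell, and Ccnd3, cyclin D3, rose (0.89 ± 0.14). Of 15 inhibitors and quiescence genes Cdkn2c, the CDK inhibitor p18, fell (-1.87 ± 0.23) and Btg1, an antiproliferative factor, rose (1.38 ± 0.23), and Ccng1, cyclin G1, did not pass (-0.71 ± 0.29).

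Of all genes, 28.5% fell and 31% rose between op/op and WT. There 12 of 24 further replication genes fell and 3 rose, and 15 of 25 further mitotic genes fell and 4 rose. Their medians were -0.62 and -0.95, the opposite order to that of the members. Chaf1a (-2.33 ± 0.19), Fen1, the flap nuclease (-1.59 ± 0.17), and Uhrf1 (-1.38 ± 0.20) fell, as did Smc4, a condensin subunit (-1.37 ± 0.15), Incenp, of the passenger complex (-1.70 ± 0.20), and Anln, anillin (-2.06 ± 0.24). All 8 G1 regulators fell, among them Cdc25a, a phosphatase that activates CDKs (-1.27 ± 0.16), Myc (-1.47 ± 0.26) and Cdk6 (-0.90 ± 0.16). Of 13 tested inhibitors and quiescence genes 11 fell and 0 rose (0 at an unadjusted p under 0.05), including Cdkn1a, the CDK inhibitor p21 (-1.88 ± 0.32), Ccng2, cyclin G2 (-1.48 ± 0.21), and Cdkn2d, the CDK inhibitor p19 (-0.88 ± 0.15).

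Of all genes, 34.7% fell and 47.4% rose between bone marrow and kidney cells. In kidney cells 18 of 27 further replication genes fell and 3 rose, and 18 of 28 further mitotic genes fell and 6 rose. Orc1 (-1.75 ± 0.13) and Orc6 (-1.22 ± 0.11), subunits of the origin recognition complex, Chaf1a (-1.65 ± 0.13), Anln (-2.26 ± 0.17), Smc4 (-1.30 ± 0.11) and Ect2 (-1.26 ± 0.12) fell. Of 8 G1 regulators 7 fell, with E2f3 (-2.60 ± 0.11), Cdk4 (-1.72 ± 0.14) and Cdc25a (-1.27 ± 0.12). Of 15 inhibitors and quiescence genes 9 fell and 2 rose, with Ccng1 (-3.28 ± 0.21) and Cdkn1a (-2.89 ± 0.22) lower and Btg2, an antiproliferative factor, higher (2.64 ± 0.16).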

How the data were processed

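One-colour Agilent arrays measured RNA from 12 samples, 3 in each of 4 groups taken from the labels. Per the labels' protocols, RNA was amplified and labelled with Cy3, and per the submitters' processing notes, Agilent Feature Extraction 10.7.3.1 read the scans. The deposited intensity values, per the file headers, are background-subtracted spot signals. The authors' deposited log2 table, found by comparison with the scanner values to carry a 75th percentile scaling, served as an alternative.

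From the intensities, spots of a probe were averaged, log2 was taken and the array's 75th percentile over all probes subtracted. Probes with a flagged spot were left out. Probes had to be well above background on all arrays of 1 group or more, which left 42920 probes and 28248 genes, and each comparison asked the same of its own groups. The brightest probe stood for a gene. Positions of probes come from the files (mm9), and no annotation of that build was used to place them in exons. Probes were named through RefSeq by accession or symbol where they matched.

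All 12 arrays entered a single limma fit (limma 3.58.1, R 4.3.3) with 4 groups. Benjamini-Hochberg adjustment ran over all genes tested in a comparison, and an adjusted p under 0.05 was called. Because the spread is pooled over groups and kidney arrays varied more (median residual SD 0.367) than bone marrow arrays (0.161), the SEs of kidney differences are likely understated and those of bone marrow differences overstated. The procedure was tested on simulated data. The members and lists were chosen with earlier results of these data known. Values on every array are given for a fixed set of genes and for the 4 with the largest and the 4 with the smallest difference of each comparison, and the 3 genes with the smallest p from each further list. Replicate numbers were shared within kidney and within bone marrow, but deviations of same-numbered arrays correlated at -0.165 to 0.144, so the numbers were not taken as pairs. The number of arrays limits the precision. Alternatives were other background corrections, scalings, filters, probes and fits, slide as a term or random block, and leaving out each array. Tables were made in Python 3.11.15 with pandas 2.3.3 and numpy 2.4.6, and figures in matplotlib 3.10.9.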

Additional observations from a re-analysis of the deposited data

How the results depend on the processing

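M1 against M2 gave 0 members higher and 32 to 34 lower on leaving out each array in turn (5.82% to 6.19% of all genes lower). Of all genes 1761 of 26772 to 1850 of 26247 were higher. Op/op against WT gave 4 to 7 higher and 25 to 31 lower (23.1% to 30.6% lower), with 5482 of 27125 to 9127 of 27311 of all genes higher. Renal against bone marrow gave 8 to 10 higher and 29 to 34 lower (33.4% to 35.1% lower), with 13023 of 28455 to 14226 of 28711 of all genes higher. With the replicate number as a block the counts were 0 and 34, 6 and 31, and 8 and 29 (7.44%, 27% and 33% lower). Of all genes 2063 of 26160, 8007 of 27043 and 12565 of 28248 were higher with that block. Asking for a 2-fold change as well left 3 members higher and 16 lower in op/op against WT and 4 higher and 21 lower in renal against bone marrow (13.1%, 13.1%, 31.6% and 22.6% of all genes). Filtering genes on all 12 arrays, which tests 31 members, left 6 higher and 19 lower in op/op against WT (7580 of all 20544 genes higher, 31% lower). In renal against bone marrow it left 8 higher and 20 lower (9572 of all 20544 genes higher, 37.6% lower). The fit to the groups compared alone left 3 members higher in op/op against WT (17.4% of all genes). Slide as a random block left 5 higher and 23 lower in renal against bone marrow (35.3% and 27% of all genes). The cause of either change was not tested. Direction turned in renal against bone marrow for Ccne1 with the mean of its probes (-0.24) and its next brightest probe (-1.17) and for Mad2l1 (-0.22 and -0.11). Of the members called, 32 of 38 kept their call in M1 against M2, 22 of 37 in op/op against WT and 26 of 40 in renal against bone marrow. This counts only the alternatives that tested the gene, and the filter on all 12 arrays left some members out. Slide as a term gave 5 higher and 29 lower in op/op against WT (27.7% and 24.5% of all genes). It could not be fitted for renal against bone marrow. Random blocks for slide, median centring and the use of a gene's next brightest probe were chosen after seeing the data. Dim signal limits the folds of genes not above background in op/op cells.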
